A study of Mus musculus with 6 samples.

Results

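The enzymes that build triglyceride were examined in primary brown adipocytes at the level of their transcripts. The set holds 10 genes chosen by name, Gpam, Agpat2, Agpat3, Agpat9, Lpin1, Lpin2, Dgat1, Dgat2, Pck1 and Gyk, out of 28890 RefSeq transcripts in the abundance table. All 10 were present and all 10 passed the minimum abundance for testing, a mean of 0.5 RPKM. Genes with more than 1 RefSeq row are represented by the row of highest mean, which concerned Lpin1 with 3 rows and Lpin2 and Gyk with 2 rows each. Agpat9 and Gyk are now named Gpat3 and Gk in RefSeq, and the names of the table are kept here.

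Precursor cells from the interscapular brown fat of young male 129SvEvS1 mice were grown and differentiated in the dish, in 3 independent cultures of wildtype (WT) and 3 of UCP1(-/-) origin (Ucp1-KO). Both genotypes received the same induction and differentiation media with insulin, thyroid hormone and rosiglitazone, an activator of the adipocyte transcription factor PPARγ. Ucp1-KO cells lack functional uncoupling protein 1 from the precursor stage on and still transcribe a remnant of the gene, and how many animals contributed to each culture is not given in the sources used here. RNA was taken from differentiated cells, and abundance is given in RPKM, a read number corrected for the length of the transcript and for library size.

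Re-esterification joins free fatty acids to a glycerol backbone, so that fatty acids released by lipolysis return to triglyceride at the cost of ATP. The backbone is glycerol-3-phosphate, which adipocytes make from glucose, from pyruvate by way of phosphoenolpyruvate carboxykinase (Pck1), or from free glycerol by glycerol kinase (Gyk). Glycerol-3-phosphate acyltransferases add the first fatty acid, acylglycerolphosphate acyltransferases the next, lipins remove the phosphate, and diacylglycerol acyltransferases complete the triglyceride. White adipocytes are known for very low glycerol kinase activity, and brown adipocytes for a substantial one.

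Ucp1, the targeted gene, had 1304 ± 417 RPKM in WT cultures against 371 ± 56.1 RPKM in Ucp1-KO cells (SD, n = 3 each), with no overlap between genotypes. Between 14989604 and 17727653 reads stood behind the RPKM values of a culture, and the enzymes were covered by between 247 reads, for Lpin2, and 16671 reads, for Agpat2. Adipocyte markers (7 of 7 above 3 reads in every culture, Adipoq and Fabp4 among them) summed to between 30159 and 32065 RPKM in WT cultures against between 31598 and 33354 RPKM in Ucp1-KO cells, and those of brown adipocytes (6 of 6) to between 1325 and 1532 and between 1386 and 2250 RPKM. Stromal and preadipocyte markers (8 of 8 above 3 reads) summed to between 717 and 1672 RPKM in WT cultures against between 616 and 977 RPKM in Ucp1-KO cells, with the highest sum in WT replicate 11. Of the 37 genes of these 6 marker lists, 3 did not overlap between genotypes (2 of 8 stromal and 1 of 7 adipocyte markers), a share no higher than the 11.2% of all transcripts tested. Dcn, which encodes the matrix protein decorin, had 55.4, 92.2 and 69.2 RPKM in WT cells and 35.4, 47.9 and 34.4 RPKM in Ucp1-KO cells (log2 fold change -0.85, unadjusted p = 0.00513, limma adjusted p = 0.868), and Pdgfra, a receptor of preadipocytes, had 19.0 to 22.3 and 13.2 to 18.8 RPKM. The 1 adipocyte marker without overlap was Cebpa, at 131 to 148 RPKM in WT and 148 to 174 RPKM in Ucp1-KO cells. Macrophage markers (6 of 6) summed to between 59.4 and 179 RPKM in WT cells and to 166, 817 and 42.5 RPKM in Ucp1-KO replicates 13, 14 and 15, and endothelial markers (4 of 4) to between 2.30 and 28.0 and between 5.22 and 12.8 RPKM. Muscle markers (2 of 6 above 3 reads in every culture) summed to between 5.79 and 14.1 RPKM, with Myod1, Myog, Ckm and Myh1 at 0 in at least 1 culture.

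Abundance of the enzymes spanned more than 2 orders of magnitude (RPKM, mean of all 6 cultures). Agpat2 stood first with 1056 ± 91.1 RPKM (SD, n = 6) and exceeded the second gene in 6 of 6 cultures. Agpat3 (133 ± 17.9 RPKM), Dgat1 (125 ± 5.32 RPKM), Gpam (111 ± 24.2 RPKM), Lpin1 (100.2 ± 10.8 RPKM) and Pck1 (97.7 ± 17.9 RPKM) formed a middle group, in which each overlapped with its neighbour in the order. Dgat2 followed with 56.5 ± 9.31 RPKM, below Pck1 and above Agpat9 in all cultures. Agpat9 (31.7 ± 3.79 RPKM) and Gyk (28.9 ± 13.2 RPKM) overlapped, and Lpin2 was last with 3.73 ± 0.628 RPKM (SD, n = 6 each). Counted with 1 transcript per gene, Agpat2 held place 24 of all genes in WT cells, Agpat3 place 378, Gyk place 2127 and Lpin2 place 8329.

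**Figure D1:**
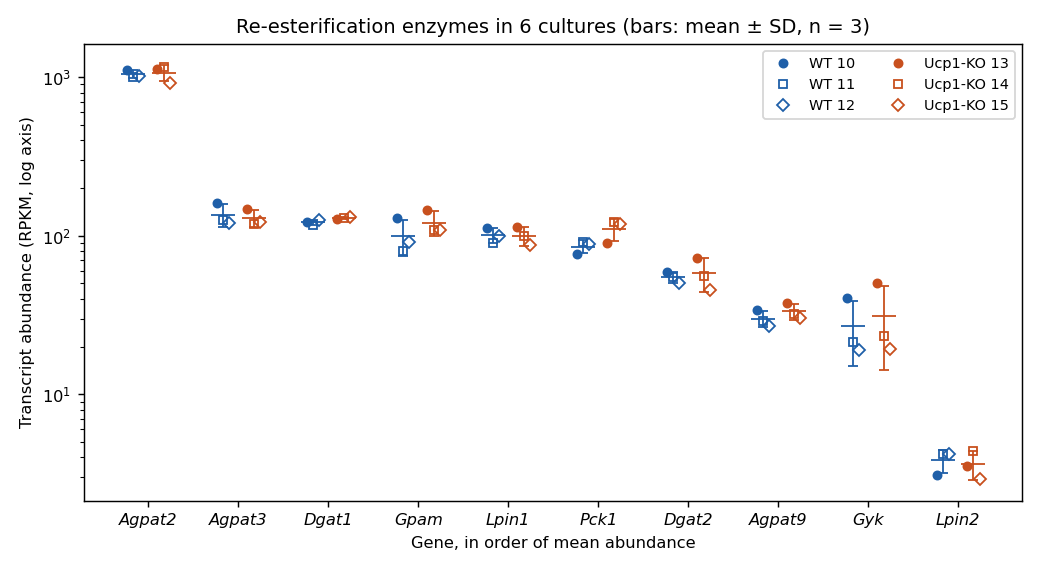
Transcript abundance of the 10 enzymes (RPKM, logarithmic axis) in the 3 WT (blue) and 3 Ucp1-KO (orange) cultures, 1 symbol per culture, with horizontal bars for the mean and vertical bars for the SD of each genotype. Agpat2 lies near 1000 RPKM, far above the others, and filled circles (WT replicate 10 and Ucp1-KO replicate 13) lie on top for Gyk, Gpam, Agpat3, Agpat9, Lpin1 and Dgat2.

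Transcription starts of 8 of the 10 genes were found in the RefSeq promoter table of GRCm38.p6, all but Dgat1 and Dgat2. The 250 bases before the start are shown for the 4 enzymes with the highest log2 fold changes between genotypes, Pck1, Gpam, Agpat9 and Gyk, 5′ to 3′ on the strand of the gene. Capitals mark 2 short motifs on either strand, TGACGT, the core of the cAMP response element, and AGGTCA, an element bound by nuclear receptors. For Gpam, which has 2 starts in the table, the one of its RefSeq transcript in the RPKM table is given.
Pck1 (chr2:173152823-173153072, forward strand): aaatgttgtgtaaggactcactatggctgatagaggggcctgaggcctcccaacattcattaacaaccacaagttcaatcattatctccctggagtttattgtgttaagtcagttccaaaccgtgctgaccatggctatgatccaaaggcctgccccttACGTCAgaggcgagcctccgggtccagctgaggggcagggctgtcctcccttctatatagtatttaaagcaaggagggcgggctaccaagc
Gpam (chr19:55099478-55099727, reverse strand): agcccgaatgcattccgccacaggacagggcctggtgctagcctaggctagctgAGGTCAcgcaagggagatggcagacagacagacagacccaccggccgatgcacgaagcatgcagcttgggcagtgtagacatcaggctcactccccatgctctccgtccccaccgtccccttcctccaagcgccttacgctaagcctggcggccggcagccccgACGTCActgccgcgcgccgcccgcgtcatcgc
Agpat9 (chr5:100845979-100846228, forward strand): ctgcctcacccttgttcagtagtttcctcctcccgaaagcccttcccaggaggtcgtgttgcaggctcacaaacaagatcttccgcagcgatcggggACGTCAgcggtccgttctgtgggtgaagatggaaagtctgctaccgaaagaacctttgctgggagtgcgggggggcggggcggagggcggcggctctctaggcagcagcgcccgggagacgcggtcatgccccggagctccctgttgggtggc
Gyk (chrX:85776820-85777069, reverse strand): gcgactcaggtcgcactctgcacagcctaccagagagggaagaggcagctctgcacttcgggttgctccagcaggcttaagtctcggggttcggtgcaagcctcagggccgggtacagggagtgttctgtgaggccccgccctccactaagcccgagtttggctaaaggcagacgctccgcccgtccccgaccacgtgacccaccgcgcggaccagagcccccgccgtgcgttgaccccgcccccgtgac
TGACGT occurred 1 time each in the windows shown of Pck1, Gpam and Agpat9, beginning 91, 32 and 153 bases before the start. It was in no window of the other 5 genes, and thus in 3 of 11 windows. The window at the other start of Gpam held neither TGACGT nor AGGTCA. Among all 32851 windows of this length in the table, 6.47% held it. AGGTCA was present in the Gpam window shown and in that of Lpin1, and in 14.02% of all windows. The marked motifs did not overlap each other. Of 3 further motifs searched on both strands, CACGTG was found for Gyk and Lpin2 (6.02% of all windows), CCAAT for Lpin2 and for the other start of Gpam (33.8%), and TATAAA for 0 of the 8 genes (12.4%). These motifs were chosen after the sequences had been read, and a match describes letters in the window, not a site in use.

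Glycerol-3-phosphate acyltransferases begin the pathway. Gpam, the mitochondrial enzyme (chromosome 19, 55067268 to 55127238, reverse strand), had 129, 80.3 and 90.6 RPKM in WT replicates 10, 11 and 12 and 146, 109 and 108 RPKM in Ucp1-KO replicates 13, 14 and 15. Only WT replicate 10 reached into the range of the Ucp1-KO cultures, and it exceeded 2 of them. The log2 fold change was 0.29 (standard error 0.20, 95% interval -0.20 to 0.77, limma adjusted p = 0.877), where a positive value stands for higher abundance in Ucp1-KO cells. Without WT replicate 10 it was 0.49, with an unadjusted p of 0.0254 and a limma adjusted p of 0.441, in a fit where 10.4% of all transcripts had an unadjusted p under 0.05. It was 0.15 both without WT replicate 11 and without Ucp1-KO replicate 13. Agpat9 (chromosome 5, 100845713 to 100899102, forward strand), an enzyme of the endoplasmic reticulum that despite its name acts on glycerol-3-phosphate, had 33.8, 29.0 and 27.1 RPKM in WT cultures against 37.8, 32.2 and 30.2 RPKM in Ucp1-KO cells. The genotypes overlapped, and the log2 fold change was 0.15 (standard error 0.12, 95% interval -0.14 to 0.44, limma adjusted p = 0.889).

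Acylglycerolphosphate acyltransferases act next, and Agpat2 is the one whose loss causes congenital lipodystrophy. Agpat2 (chromosome 2, 26593057 to 26604417, reverse strand) had 1113, 1003 and 1013 RPKM in WT cultures against 1132, 1156 and 922 RPKM in Ucp1-KO cells. Both the highest and the lowest value belonged to Ucp1-KO cultures, so that the genotypes overlapped fully (log2 fold change 0.03, standard error 0.13, 95% interval -0.28 to 0.34, limma adjusted p = 0.977). The model behind the RefSeq row of Agpat2 was 837 bases long, exactly the coding length in GENCODE, and thus without untranslated regions. A longer Ensembl model of 1489 bases in the same table had 1373 ± 63.0 RPKM in WT cultures against 1422 ± 176 RPKM in Ucp1-KO cells (SD, n = 3 each), and a short one of 438 bases had 265 ± 18.6 and 274 ± 21.9 RPKM. The level of Agpat2 thus depended on the gene model, and all 3 models had means above those of the other 9 enzymes. Agpat3 (chromosome 10, 78269178 to 78352489, reverse strand), a broadly expressed relative, had 162, 125 and 121 RPKM in WT cultures against 148, 118 and 122 RPKM in Ucp1-KO cells. WT replicate 10 and Ucp1-KO replicate 13 stood above the other 4 cultures, which lay between 118 and 125 RPKM irrespective of genotype. The log2 fold change was -0.06 (standard error 0.15, 95% interval -0.41 to 0.29, limma adjusted p = 0.958).

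Lipins, the phosphatidic acid phosphatases of this pathway, were represented almost entirely by Lpin1, the gene mutated in the fatty liver dystrophy mouse. Lpin1 (chromosome 12, 16535669 to 16610966, reverse strand) had 112, 90.3 and 99.0 RPKM in WT cultures against 113, 99.3 and 87.0 RPKM in Ucp1-KO cells. The means were 100.4 ± 10.9 and 99.9 ± 13.2 RPKM (SD, n = 3 each), and the log2 fold change was -0.01 (standard error 0.13, 95% interval -0.32 to 0.30, limma adjusted p = 0.994). Its other RefSeq rows had WT means of 98.4 and 99.9 RPKM and log2 fold changes of -0.01 each, but rows of 1 gene share most of their reads and are not independent measurements. Lpin2 (chromosome 17, 71182560 to 71249817, forward strand), which is prominent in liver, had 3.10, 4.18 and 4.20 RPKM in WT cultures against 3.55, 4.41 and 2.92 RPKM in Ucp1-KO cells. These values rested on 247 to 429 reads per culture and overlapped between genotypes (log2 fold change -0.07, standard error 0.16, 95% interval -0.45 to 0.32, limma adjusted p = 0.958).

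Diacylglycerol acyltransferases complete the triglyceride, by 2 enzymes of unrelated sequence. Dgat1 (chromosome 15, 76502015 to 76511953, reverse strand), which in adipocytes is known for re-esterifying fatty acids set free by lipolysis, had 122, 117 and 126 RPKM in WT cultures against 127, 129 and 132 RPKM in Ucp1-KO cells. It was the least variable of the 10 enzymes, with a highest value only 1.13 times the lowest. All Ucp1-KO cultures lay above all WT cultures, and their mean was 106% of the WT mean (exact two-sided permutation test, p = 0.10, below which 3 against 3 cultures cannot fall). The difference did not pass the threshold across all transcripts (log2 fold change 0.09, standard error 0.08, 95% interval -0.10 to 0.28, limma adjusted p = 0.893). Dgat1 was the only 1 of the 10 enzymes without overlap between genotypes, beside 11.2% of all transcripts tested, with every Ucp1-KO culture above every WT culture in 6.04%. The separation was lost under median-of-ratios scaling, where WT replicate 10 (128 RPKM) exceeded Ucp1-KO replicate 14 (126 RPKM). Dgat2 (chromosome 7, 99153658 to 99182719, reverse strand), often linked to newly synthesized fatty acids, had 59.1, 55.3 and 50.3 RPKM in WT cultures against 72.9, 55.9 and 45.6 RPKM in Ucp1-KO cells. The highest and the lowest value were both found in Ucp1-KO cultures (log2 fold change 0.06, standard error 0.17, 95% interval -0.35 to 0.47, limma adjusted p = 0.969).

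Pck1 and Gyk supply glycerol-3-phosphate without drawing on glucose. Pck1 (chromosome 2, 173153048 to 173159273, forward strand), the key enzyme of glyceroneogenesis, had 76.2, 91.6 and 88.6 RPKM in WT cultures against 90.3, 121 and 118 RPKM in Ucp1-KO cells. Ucp1-KO replicates 14 and 15 stood 1.29-fold or more above all other cultures, while replicate 13 lay within the range of WT cells. Under median-of-ratios scaling, replicate 13 (93.0 RPKM) exceeded the highest WT culture (87.5 RPKM), so that the genotypes of Pck1 did not overlap. On the deposited scale 11.2% of all transcripts did not overlap, and the share under the other scaling is not given here. The mean was 85.5 ± 8.17 RPKM in WT cultures against 109.9 ± 17.1 RPKM in Ucp1-KO cells (SD, n = 3 each; exact two-sided permutation test, p = 0.2). With a log2 fold change of 0.35 (standard error 0.14, 95% interval 0.02 to 0.69), Pck1 had the highest estimate and the smallest unadjusted p of the 10 enzymes (0.0424), and it did not pass after adjustment (limma adjusted p = 0.868). The unadjusted p exceeded 0.05 without any 1 of the cultures other than Ucp1-KO replicate 13, with log2 fold changes between 0.27 without WT replicate 10 and 0.49 without Ucp1-KO replicate 13. The share of all transcripts with an unadjusted p under 0.05 itself varied in these fits, with 10.4%, 1.88% and 2.61% without WT replicates 10, 11 and 12 and 9.14%, 3.57% and 5.16% without Ucp1-KO replicates 13, 14 and 15. The summed markers of brown adipocytes were also highest in Ucp1-KO replicates 14 and 15 (1641 and 2250 RPKM). Of the 6 genes, Cidea alone (917 and 1371 RPKM) had its 2 highest values there. Cox7a1 was highest in replicate 15 (743 RPKM), but in replicate 14 (599 RPKM) it lay below all WT cultures (608 to 669 RPKM). Ppargc1a was highest in replicate 15, Prdm16 and Dio2 in replicate 14, and Elovl3 in replicate 13. By contrast, macrophage markers were highest in replicate 14 (817 RPKM) and lowest in replicate 15 (42.5 RPKM). Pparg, 1 of 7 adipocyte markers, also had its 2 highest values in Ucp1-KO replicates 14 and 15 (136 and 143 RPKM). Adipoq, Plin1 and Cidec instead had theirs in WT replicate 10 and Ucp1-KO replicate 13. Of 8 stromal markers, Dcn and Pdgfra were lower in all Ucp1-KO cultures, and the other 6 overlapped. Thy1, Col3a1, Cd34 and Col1a1 had log2 fold changes of -0.64, -0.52, -0.44 and -0.21. Ly6a (-0.08) had a higher mean RPKM in Ucp1-KO cells, with 200 RPKM in replicate 14 against 117 and 48.9 RPKM in replicates 13 and 15. Dlk1, also of higher mean in Ucp1-KO cells (0.431 against 0.228 RPKM), was too low to be tested. The part of any of these in the values of Pck1, Dgat1 or Aqp7 was not tested.

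Gyk (chromosome X, 85701937 to 85776819, reverse strand), glycerol kinase, was the most variable of the 10 enzymes. It had 40.4, 21.4 and 18.9 RPKM in WT cultures against 50.3, 23.4 and 19.3 RPKM in Ucp1-KO cells. WT replicate 10 and Ucp1-KO replicate 13 stood 1.73-fold or more above the other 4 cultures, and these 4 lay between 18.9 and 23.4 RPKM in both genotypes. The values rested on 1257 to 3527 reads per culture. The log2 fold change was 0.15, with a standard error of 0.41 and a 95% interval of -0.81 to 1.12 (limma adjusted p = 0.964), which in folds reaches from 0.569 to 2.18. It changed sign without WT replicate 12 (-0.05) and without Ucp1-KO replicate 13 (-0.25). The second RefSeq row of Gyk had means of 26.6 and 30.6 RPKM. Relative to Pck1, Gyk amounted to 0.530, 0.234 and 0.213 in WT and 0.557, 0.193 and 0.164 in Ucp1-KO cells, again with WT replicate 10 and Ucp1-KO replicate 13 apart from the rest (RPKM ratio, 0.326 ± 0.177 against 0.305 ± 0.219, SD, n = 3 each, exact two-sided permutation test, p = 0.7).

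Over the whole set, 7 enzymes had a higher and 3 a lower mean log2 abundance in Ucp1-KO than in WT cells, with the direction of Lpin1 turning under median-of-ratios scaling (0.0028), and 0 of 10 passed an adjusted p of 0.05 in limma, as did 0% of the 16865 transcripts tested. The smallest adjusted p of all was 0.868, shared by the targeted gene Ucp1 (log2 fold change -1.78, unadjusted p = 0.000157), which was thus not called either. At an unadjusted p under 0.05 there was 1 enzyme, Pck1, beside 5.54% of all transcripts (2.3% with higher abundance in Ucp1-KO cells). With limma-voom on the recovered reads, 0 of the 10 enzymes passed after adjustment and 1 before, beside 0 and 899 of the 16865 transcripts in that fit. The median log2 fold change was 0.07 for the 10 enzymes and -0.0016 for all transcripts. Limma adjusted p-values of the enzymes lay between 0.868 and 0.994. As folds, the 95% intervals of Agpat2, Agpat3, Agpat9, Lpin1, Lpin2, Dgat1 and Dgat2 lay between 0.732 and 1.38, whereas those of Pck1 and Gpam reached up to 1.61 and 1.71. Genotype accounted for 62.2% of the spread between cultures (sum of squares of log2 values) in Dgat1, 55.5% in Pck1, 25.3% in Gpam and 24.9% in Agpat9, and for at most 3.42% in each of the other 6 enzymes.

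**Figure D2:**
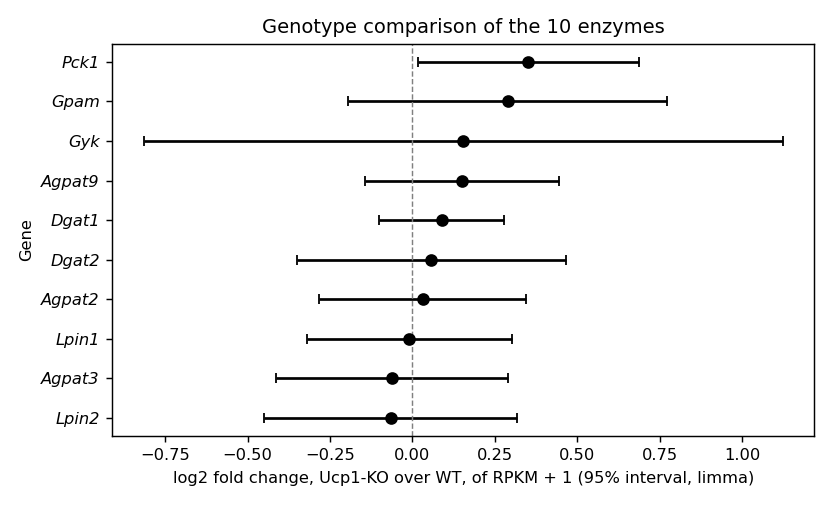
Log2 fold change of RPKM + 1 between Ucp1-KO and WT cultures (n = 3 each) for the 10 enzymes, with 95% intervals from limma. The interval of Pck1 (0.02 to 0.69) is the only 1 that does not include 0, and that of Gyk (-0.81 to 1.12) is the widest.

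Genotype accounted for the smaller part of the spread between cultures in 8 of the 10 enzymes, all but Dgat1 and Pck1. For 6 of the 10 enzymes (Gpam, Agpat3, Agpat9, Lpin1, Dgat2 and Gyk) the pair of cultures with the highest values was WT replicate 10 and Ucp1-KO replicate 13. This pair was highest for 10.5% of all transcripts tested. Under median-of-ratios scaling it was highest for 7 enzymes, with Agpat2 added, and for 18.0% of all transcripts. The excess of this pair over the next culture was largest for Gyk, and amounted to 1.19-fold for Gpam and Agpat3, 1.13-fold for Lpin1, 1.06-fold for Dgat2 and 1.05-fold for Agpat9. Pck1 showed a different order, with its lowest value in WT replicate 10 and its highest in Ucp1-KO replicates 14 and 15. Ucp1-KO replicate 15 had the lowest value for Agpat2, Lpin1, Lpin2 and Dgat2. Of the 7 adipocyte markers, 3 were also highest in this pair, Adipoq (1480 and 1714 RPKM), Cidec (1108 and 1419 RPKM) and Plin1 (451 and 456 RPKM), as was Elovl3 among the 6 brown markers (130.2 and 225 RPKM). The adipocyte sum does not show this, since Fabp4 alone contributed 26399 to 29312 RPKM to it. WT replicate 10 had the lowest sum of endothelial markers (2.30 RPKM) and the lowest of stromal markers among WT cultures (717 RPKM), whereas Ucp1-KO replicate 13 lay in the middle of the 6 cultures for both (5.69 and 977 RPKM), and the part of adipocyte content or of other cells in the enzyme values was not tested. In RNA from whole cultures, fewer adipocytes and less transcript per adipocyte cannot be told apart.

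**Figure D3:**
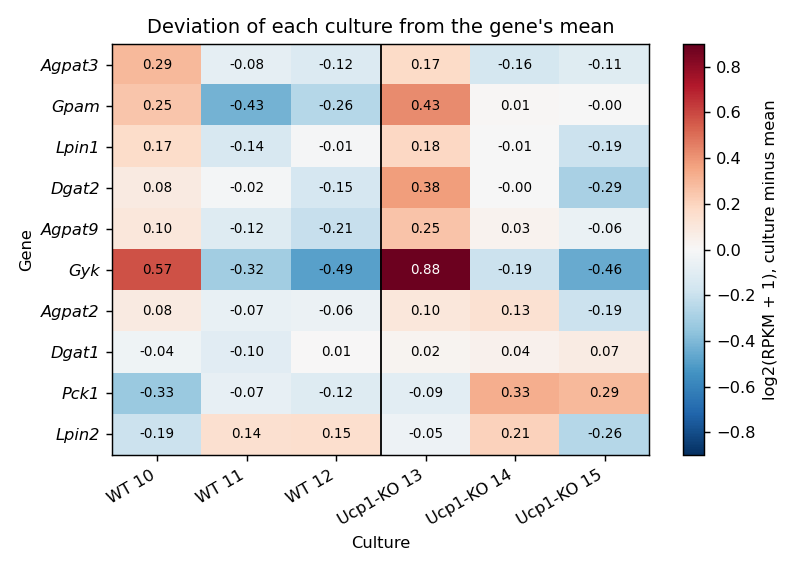
Deviation of each culture from the mean of the gene over all 6 cultures, in log2(RPKM + 1), for the 10 enzymes (rows) and 6 cultures (columns, WT left and Ucp1-KO right of the line). Red cells of the upper 6 rows fall in WT replicate 10 and Ucp1-KO replicate 13, strongest for Gyk, whereas Pck1 is red in Ucp1-KO replicates 14 and 15.

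Gyk and Gpam had the largest SD of log2 abundance among the 10 enzymes, and their patterns over the 6 cultures were compared with those of 5038 other genes with a mean of at least 10 RPKM. Likeness was the root mean square difference between the log2 deviations of both genes. Closest to Gyk were 4931408D14Rik (0.132), Hpdl (0.140) and Ddx39 (0.143), and the closest of the other enzymes was Gpam (0.322). Hpdl had 15.7, 8.30 and 8.20 RPKM in WT cultures against 18.3, 10.2 and 9.20 RPKM in Ucp1-KO cells, a likeness that its selection fixes. Closest to Gpam were Tns1 (0.0540), Ppip5k1 (0.0545) and Klhdc7a (0.0595), and the closest enzyme was Agpat9 (0.162). These distances describe 6 cultures and carry no test.

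Levels within a culture were compared per length, since RPKM is corrected for transcript length, by the share of each gene in the summed abundance of its step. Gpam made up 65.1 ± 3.40% of the glycerol-3-phosphate acyltransferases in WT and 66.3 ± 2.19% in Ucp1-KO cells, ahead of Agpat9 (19.9 ± 2.20% and 18.4 ± 0.706%), Agpat6 (14.8 ± 1.22% and 15.1 ± 1.80%) and Gpat2, at 0.149 ± 0.0490% and 0.171 ± 0.0955% (SD, n = 3 each). Agpat2 contributed 83.9 ± 0.715% and 84.4 ± 1.66% of Agpat genes 1 to 5, followed by Agpat3 with 10.9 ± 1.06% and 10.3 ± 1.27%. With the longer Ensembl model of Agpat2, its share was 87.2 ± 0.726% in WT and 87.8 ± 1.37% in Ucp1-KO cells (SD, n = 3 each). Lpin1 held 93.9 ± 1.45% and 94.5 ± 0.885% of the lipins, and Dgat1 68.9 ± 2.20% and 69.2 ± 5.37% of both diacylglycerol acyltransferases. In each step the same gene thus had the largest share of RPKM in every culture of both genotypes. These are shares of transcript, and enzyme protein or activity was not measured. The shares of Gpam, Agpat2, Lpin1 and Dgat1 and the ratio of Gyk to Pck1 were tested, and none of them differed between genotypes beyond the spread of the cultures (exact two-sided permutation tests, p between 0.6 and 1, adjusted p = 1 over 5 comparisons).

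**Figure D4:**
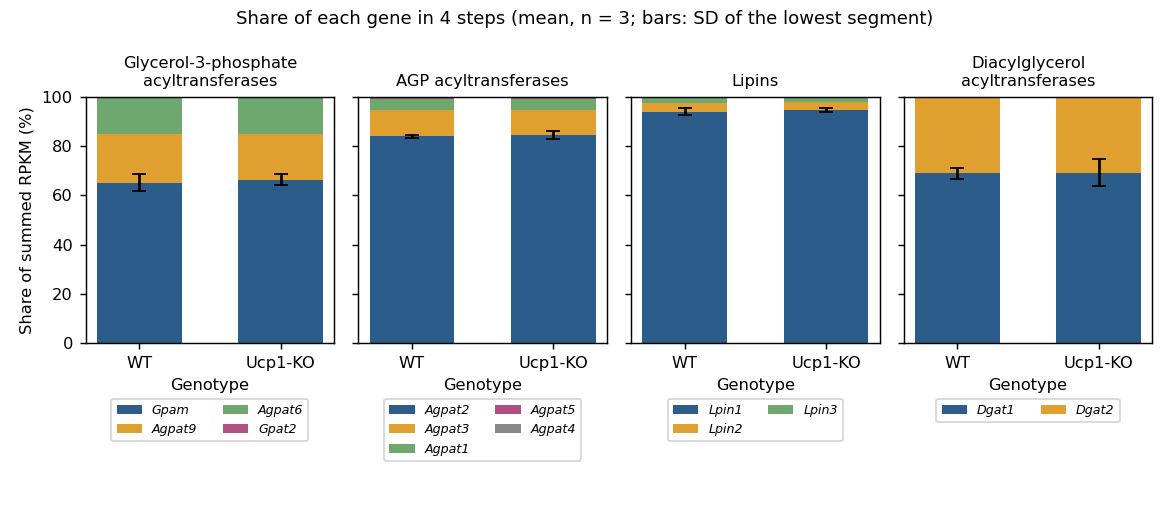
Share of each gene in the summed RPKM of its step (percent, stacked bars, means of 3 cultures per genotype, with error bars for the SD of the lowest segment). The leading gene of each step, Gpam, Agpat2, Lpin1 and Dgat1, takes 65.1%, 83.9%, 93.9% and 68.9% in WT and 66.3%, 84.4%, 94.5% and 69.2% in Ucp1-KO cells.

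Of 20 further genes of glycerolipid synthesis, 17 were abundant enough to be tested, all but Gpat2, Mogat2 and Fitm1. In limma 0 of these 17 passed an adjusted p of 0.05 and 0 an unadjusted one, beside 0% and 5.54% of all transcripts, and 8 were higher and 9 lower in the Ucp1-KO genotype, with a median log2 fold change of -0.0082. Gpd1, the cytosolic glycerol-3-phosphate dehydrogenase that makes the backbone from glucose, was the most abundant of them, with 2187, 953 and 1029 RPKM in WT cultures against 3067, 1544 and 1041 RPKM in Ucp1-KO cells. WT replicate 10 and Ucp1-KO replicate 13 were highest here as well, and so they were for Lclat1, Bscl2 and Fitm2, the latter of which encode proteins of lipid droplet formation. The log2 fold change of Gpd1 was 0.40 with a standard error of 0.47 (limma adjusted p = 0.910). Gpd2, the mitochondrial glycerol-3-phosphate dehydrogenase, had the smallest unadjusted p of the list (0.0856), with 37.6 ± 10.4 RPKM in WT cultures against 48.8 ± 3.48 RPKM in Ucp1-KO cells (SD, n = 3 each, log2 fold change 0.40, limma adjusted p = 0.871). Of the relatives of the 10 enzymes, Agpat6, another glycerol-3-phosphate acyltransferase, had a log2 fold change of 0.28, Agpat1 of 0.09, Agpat5 of -0.14, Agpat4 of -0.26 and Lpin3 of -0.19. Pck2, the mitochondrial counterpart of Pck1, had 17.1 ± 4.94 RPKM in WT cultures against 13.4 ± 2.30 RPKM in Ucp1-KO cells (SD, n = 3 each), the lowest log2 fold change of the list at -0.30 (limma adjusted p = 0.878). Without WT replicate 10, unadjusted p-values were under 0.05 for 4 of the 17 genes, Agpat4, Agpat6, Gpd2 and Pck2, beside 10.4% of all transcripts in that fit.

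Genes of lipolysis, which delivers the fatty acids and glycerol for re-esterification, had a median log2 fold change of 0.15, with 7 of 8 higher in Ucp1-KO cells, beside 8369 higher and 8496 lower among all transcripts. In limma 0 of 8 passed an adjusted p of 0.05 and 1 an unadjusted one, beside 0% and 5.54% of all transcripts. This gene was Aqp7, the glycerol channel of adipocytes. Aqp7 had 55.3, 48.9 and 55.2 RPKM in WT cultures against 65.0, 61.4 and 61.4 RPKM in Ucp1-KO cells. The genotypes did not overlap, as in 11.2% of all transcripts, with a log2 fold change of 0.23 (standard error 0.09, unadjusted p = 0.0326, limma adjusted p = 0.868), and the unadjusted p stayed under 0.05 only without WT replicate 10 or Ucp1-KO replicate 15. Plin5, a lipid droplet protein of oxidative tissues, had the highest log2 fold change of this list, 0.35 (standard error 0.19, limma adjusted p = 0.871). For 5 of the 8 genes, Lipe, Mgll, Abhd5, Plin1 and Plin5, the pair of highest cultures was again WT replicate 10 and Ucp1-KO replicate 13. Mgll, which encodes monoglyceride lipase, varied most of these with 193, 131 and 117 RPKM in WT cultures against 271, 171 and 96.2 RPKM in Ucp1-KO cells.

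**Figure D5:**
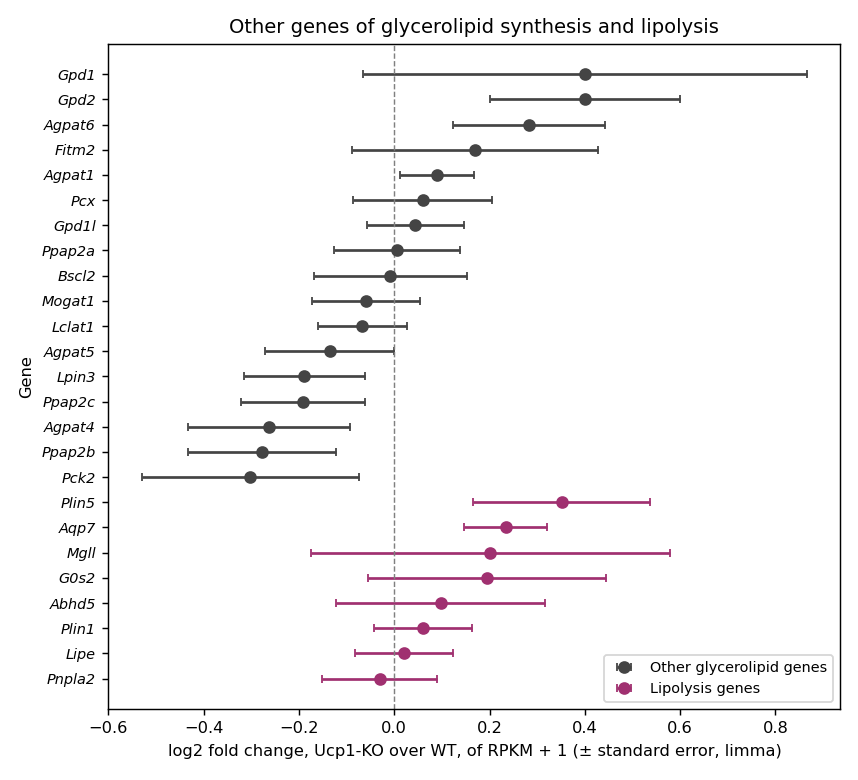
Log2 fold change of RPKM + 1 between Ucp1-KO and WT cultures (n = 3 each) with standard errors from limma, for 17 further genes of glycerolipid synthesis (grey) and 8 genes of lipolysis (purple). Estimates lie between -0.30 for Pck2 and 0.40 for Gpd1 and Gpd2, and the bars of Gpd1 and Mgll are the widest.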

How the data were processed

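RNA was measured in 3 WT and 3 Ucp1-KO cultures, grouped by the labels. The deposited values are RPKM, computed by the authors for each transcript and culture. They rest on 50-base single-end sequencing and on mouse build 38, and reads with several possible origins do not enter them. Aligner versions are not given in the sources used here. A gene that shares reads with a close copy may be understated by unique assignment, and library strandedness was not used.

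The 28890 RefSeq rows of 168326 rows were analysed. Those averaging 0.5 RPKM or more (16865 of 12259 genes) were compared on log2(RPKM + 1) with limma 3.58.1 in R 4.3.3 (empirical Bayes with an abundance trend, Benjamini-Hochberg adjustment over all transcripts, two-sided), a scale that understates changes of low genes. Single values were compared by exact permutation tests (scipy 1.17.1), which cannot fall below p = 0.10. Reads were recovered from the RPKM values, and 16865 of 16865 tested transcripts came out whole within 0.25 reads. The length of each RefSeq transcript was taken as the smallest that gave near-whole reads in all 6 cultures. The tolerance grew with the read number, so abundant transcripts can match at a wrong length, and this count does not check their recovery. At these depths, 3 reads on a transcript of 2000 bases amount to between 0.0846 and 0.1001 RPKM, which covers counting error only. The limma fit was tested on simulated data. The sources call the cultures independent, and p-values measure the spread between them. Named genes were the 10 enzymes, 2 pathway lists, Ucp1 and the 3 genes closest in pattern to each of the 2 most variable enzymes. Genes of 6 marker lists were to be given only as sums and counts, and those named singly were chosen after their values were seen. The enzymes and lists were chosen with earlier results of these data known. Gene positions are from GENCODE on GRCm38 and promoter windows from RefSeq on GRCm38.p6.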

Additional observations from a re-analysis of the deposited data

How the results depend on the processing

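No paired analysis was possible because WT cultures are numbered 10 to 12 and Ucp1-KO cultures 13 to 15 and share no number, and any pairing by order would come from outside the labels. In all settings run, 0 of the 10 enzymes passed an adjusted p of 0.05 in limma. Another added constant, other minimum abundances, 1 transcript per gene, another scaling, limma-voom on recovered reads and summed RefSeq rows gave 69 log2 fold changes of enzymes, of which 68 kept their direction. The exception was Lpin1, at 0.0028 under median-of-ratios scaling, which moved the median of all transcripts to 0.0089. Under that scaling the 1 enzyme whose genotypes did not overlap was Pck1 and no longer Dgat1. The share of all transcripts without overlap is given only for the deposited scale (11.2%), so this count has no background of its own. Lpin2 was below the minimum of 5 RPKM and gave no value there.

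Leaving out 1 culture at a time turned 11 of 60 log2 fold changes, all of enzymes far from the threshold. They ranged from 0.15 to 0.49 for Gpam, -0.029 to 0.13 for Agpat2, -0.16 to 0.071 for Agpat3, 0.06 to 0.24 for Agpat9, -0.10 to 0.085 for Lpin1, -0.19 to 0.047 for Lpin2, 0.06 to 0.11 for Dgat1, -0.12 to 0.22 for Dgat2, 0.27 to 0.49 for Pck1 and -0.25 to 0.48 for Gyk. The number of enzymes at an unadjusted p under 0.05 was 0 to 1, namely Gpam without WT replicate 10 and Pck1 without Ucp1-KO replicate 13, where 10.4% and 9.14% of all transcripts had such a p, against 1.88% without WT replicate 11. It was 0 to 4 for the other genes of glycerolipid synthesis and 0 to 2 for those of lipolysis. The difference in share between Ucp1-KO and WT cells ranged from -0.657 to 2.71 percentage points for Gpam, -0.378 to 1.27 for Agpat2, -0.0172 to 1.41 for Lpin1 and -2.23 to 3.12 for Dgat1, and that of the Gyk to Pck1 ratio from -0.147 to 0.0812. The cause of these shifts was not tested. The longer Ensembl model of Agpat2 was chosen after seeing the data. With 3 cultures per genotype, the spread between cultures and not the read number limits precision.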

Other observations

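Among all transcripts tested, the pair of cultures with the highest values combined both genotypes unevenly. WT replicate 10 with Ucp1-KO replicate 13 was the highest pair for 10.5% of transcripts, WT replicate 12 with Ucp1-KO replicate 15 for 10.2% and WT replicate 11 with Ucp1-KO replicate 14 for 9.86%. The other 6 pairs across genotypes lay between 1.84% and 6.85%. Under median-of-ratios scaling these 3 pairs were highest for 18.0%, 10.5% and 6.72% of transcripts, and the other 6 for 1.86% to 5.66%. WT replicates 11 and 12 formed the most frequent pair on the deposited scale, with 18.3% of transcripts (12.7% under the other scaling), whereas WT replicate 10 joined them in only 3.65% and 1.25%. Whether cultures of different genotype were prepared together is not given in the sources used here. This pattern was noticed in the data and carries no test.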
